A study of Mus musculus with 3 samples.

Results

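Type 1 conventional dendritic cells (cDC1) of the mouse spleen were taken from single-cell RNA libraries by a rule on raw counts of unique molecular identifiers (UMIs, 1 per captured RNA molecule). A cell barcode counted as a member if it carried 300 genes or more and 500 UMIs or more, with no more than 10% of its UMIs from mitochondrial genes. It also needed at least 2 UMIs of the MHC class II gene H2-Ab1, at least 2 of the 3 genes Xcr1, Clec9a and Cadm1, and no UMI of Cd79a (B cells), Cd3e (T cells) or C1qa (macrophages). The rule found 676 members among 49499 barcodes that passed the filters. They came from 3 libraries, with 200 members in Chow, 250 in MASH and 226 in MASH-Phe-free (below, Phe-free).

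The labels give the tissue and the treatment name, where MASH is metabolic dysfunction-associated steatohepatitis, a fatty liver disease with inflammation, and Phe is phenylalanine. The text of the series describes C3H mice that received a high-fat diet and then a fat-rich diet lacking methionine and choline, controls on another diet, and the HCA-1 liver cancer line placed under the skin. That text concerns tumour RNA. For the spleens, the sources used here give neither the age of the mice, the number pooled per library, the form of the phenylalanine-free treatment nor the presence of tumours. With 1 library per group there was no replicate, no difference between groups was tested, and every interval below is a 95% interval that covers counting error only. The members of the 3 libraries, in that order, summed to 1703087, 2606065 and 2551591 UMIs, and levels are given as UMIs of a gene per 1000000 UMIs of the members (CPM, for counts per that number). No barcode sequence was shared between libraries among the members.

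Dendritic cells take up antigen, digest it and show its peptides to T cells. The cDC1 lineage depends on the transcription factors IRF8, BATF3 and ID2, is specialised in showing peptides of dead or infected cells on MHC class I to CD8 T cells (cross-presentation), and finds those T cells partly through XCR1, the receptor for the chemokine XCL1. CLEC9A is a receptor for actin exposed on dead cells, and CADM1 is an adhesion molecule.

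Markers that the rule did not use carried the cDC1 label for most members but not for all of them. Over all members Naaa, which encodes a lysosomal amidase typical of cDC1, stood at 1303, 1519 and 1103 CPM (here and below in the order Chow, MASH, Phe-free). Irf8 was at 1582, 1837 and 1752 CPM. In a gate for plasmacytoid dendritic cells (17, 9 and 25 barcodes) Irf8 was at 2912, 3163 and 3180 CPM, so it does not single out cDC1. In a gate for type 2 conventional dendritic cells (cDC2, with 124, 196 and 135 barcodes) Naaa was at 34.3, 35.9 and 50.8 CPM. That gate required no UMI of Xcr1 or Clec9a. Its 6 monocyte markers summed to 907, 309 and 887 CPM, against 565, 748 and 1062 CPM in the members. All 15 cDC1 markers outside the rule were detected in each library, but so they were in the cDC2 gate, so detection alone does not mark the members. Their sum was 8240, 9310 and 7616 CPM in the members and 2326, 2191 and 2062 CPM in the cDC2 gate. The genes chosen by the rule, Xcr1, Clec9a and Cadm1, were at 436 to 516, 508 to 620 and 479 to 525 CPM, which describes the choice and tests nothing. All 3 were detected in 100 Chow, 135 MASH and 90 Phe-free members, and exactly 2 in 100, 115 and 136. Just inside the threshold, with 2 markers, Naaa was at 555, 623 and 367 CPM, and just outside it, with 1 marker, at 266, 286 and 213 CPM in 156, 167 and 174 barcodes.

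Members with Clec9a and Cadm1 but no Xcr1 UMI numbered 48, 42 and 83, or 24.0%, 16.8% and 36.7% of the members. Malat1, a long noncoding RNA that is kept in the nucleus and is abundant in most cells, divided the members further. It was absent from 103, 119 and 89 members and reached at least 10 UMIs in 40, 71 and 105 (20%, 28.4% and 46.5%), while 57, 60 and 32 held 1 to 9. Of gated T cells, 96.8% to 98.2% held at least 10. Both divisions were chosen after their values were seen, and together they give 3 sets of members.

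**Figure D1:**
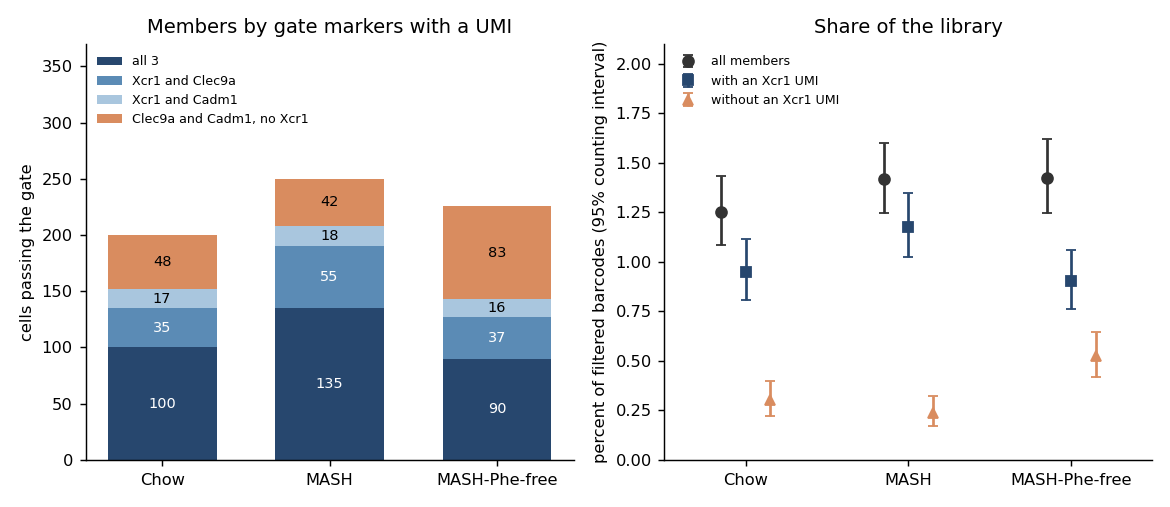
Left, cells passing the gate in each library (y axis, number of cells) by which gate markers had a UMI. Right, the share of filtered barcodes (y axis, percent) for all members, members with an Xcr1 UMI and members without, with 95% counting intervals as bars. All members lie between 1.25% and 1.42% in the 3 libraries, while members without Xcr1 go from 0.238% in MASH to 0.523% in Phe-free.

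**Figure D2:**
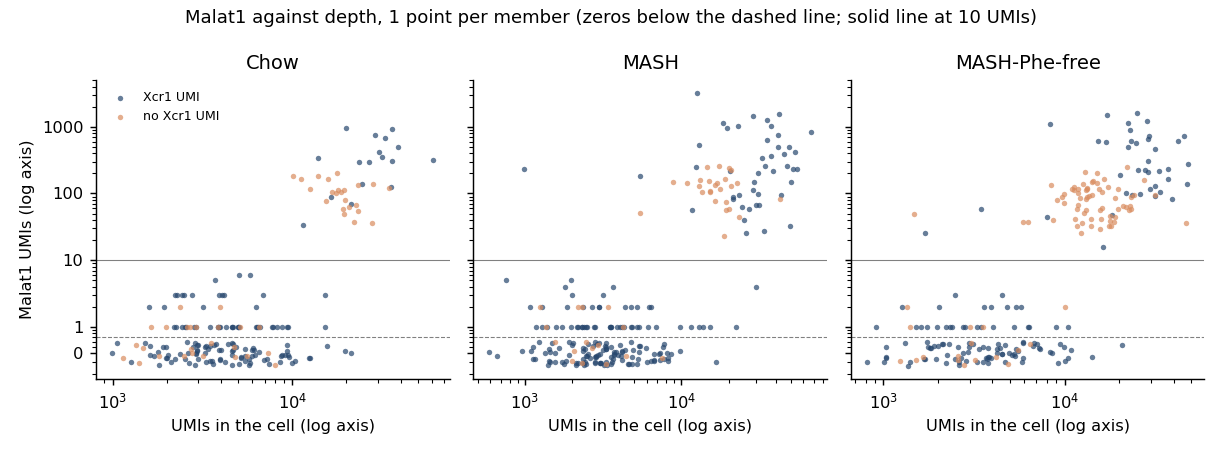
Malat1 UMIs (y axis, log scale) against all UMIs of a cell (x axis, log scale), 1 point per member, with zeros drawn below the dashed line and the solid line at 10 UMIs. The 40 Chow, 71 MASH and 105 Phe-free members with at least 10 Malat1 UMIs have medians of 20867, 22908 and 17090 UMIs in all and the others 3925, 3012 and 3447, with overlapping ranges.

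The first set held Xcr1 and at least 10 Malat1 UMIs (17 Chow, 45 MASH and 39 Phe-free members, with median depths of 28859, 31043 and 25876 UMIs). It fitted the label, with Naaa at 1774, 1754 and 1648 CPM and Wdfy4, which is needed for cross-presentation, at 1817, 1826 and 1662 CPM. Siglech, a marker of plasmacytoid dendritic cells (pDC, the main producers of type I interferon), was at 0, 1.39 and 5.87 CPM in it.

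The second set held under 10 Malat1 UMIs, with or without Xcr1, and was the largest (160, 179 and 121 members). These members were shallow, with medians of 1222.5, 1065 and 1096 genes, yet carried Naaa at 1716, 1975 and 1935 CPM, Xcr1 at 599, 669 and 656 CPM and H2-Aa at 15140, 14345 and 16071 CPM. Siglech was at 1.30, 0 and 19.8 CPM. Their median mitochondrial share was 1.001%, 1.16% and 1.09%, against 1.55%, 1.60% and 1.61% in members with at least 10 Malat1 UMIs. The cDC2 gate held fewer such barcodes, 29.8%, 40.8% and 20.7%, and all filtered barcodes 25.7%, 36.0% and 30.9%.

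The third set, with at least 10 Malat1 UMIs and no Xcr1, went against the label (23 Chow, 26 MASH and 66 Phe-free members). Naaa was at 80.5, 63.6 and 148 CPM, Wdfy4 at 212, 208 and 192 CPM, and Itgae, the αE integrin CD103, at 0, 0 and 2.93 CPM. Irf8 did not separate the sets, at 1789, 2224 and 1688 CPM here and 1667, 1829 and 1852 CPM in the first set. Siglech stood at 1690, 1587 and 1112 CPM, Tcf4, the transcription factor that maintains pDC, at 1456, 1812 and 1212 CPM, and Runx2 at 720, 771 and 573 CPM. Also high in it were Cd209d (830, 636 and 565 CPM, at 0 in the first set), Cd209a (532, 526 and 712 CPM) and Zeb2 (709, 951 and 811 CPM). The 8 pDC markers summed to 7191, 8823 and 5937 CPM, the 10 cDC2 markers to 1469, 1683 and 1617 CPM and the 6 monocyte markers to 1896, 3075 and 2348 CPM. In the first set these sums were 290 to 396, 148 to 248 and 135 to 335 CPM. The 6 neutrophil markers summed to 11352, 2744 and 1020.3 CPM and the 6 erythroid markers to 0, 9849 and 182 CPM in the third set, against 24.6, 174 and 10288 CPM and 0, 1799 and 80.3 CPM in the first. The third set was not uniform: Siglech had 2 or more UMIs in 11, 16 and 34 of its members and none in 11, 9 and 28. No other cell type is named for it.

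The share of members among filtered barcodes was 1.25% for Chow (interval 1.08% to 1.44%), 1.42% for MASH (1.25% to 1.60%) and 1.42% for Phe-free (1.25% to 1.62%). MASH over Chow gave a ratio of 1.13 (0.941 to 1.36) and Phe-free over MASH 1.01 (0.841 to 1.20), so neither ratio left 1 by more than counting error. These 2 comparisons share the MASH library. Among gated dendritic cells of all 3 kinds, all members, the third set included, made up 58.8%, 55.1% and 58.5%. Members with Xcr1 made up 44.7%, 45.8% and 37.0% of the same cells. Their ratio was 0.809 (0.686 to 0.953) for Phe-free over MASH.

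Similar totals covered different compositions. Members without Xcr1 were 0.300%, 0.238% and 0.523% of barcodes, with a ratio of 2.20 (1.52 to 3.18) for Phe-free over MASH. Members with Xcr1 were 0.951%, 1.18% and 0.901%, with a ratio of 0.765 (0.619 to 0.945). Among barcodes with at least 10 Malat1 UMIs, the first set made up 0.143%, 0.398% and 0.356%. Its ratio was 2.78 (1.59 to 4.86) for MASH over Chow and 0.893 (0.582 to 1.37) for Phe-free over MASH. The third set made up 0.194%, 0.230% and 0.602% of the same barcodes, with ratios of 1.19 (0.679 to 2.08) and 2.62 (1.66 to 4.12). In the pDC gate, which required no Xcr1 and no Clec9a, the 3 libraries held 17, 9 and 25 barcodes.

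Most genes of cDC1 identity differed little between the libraries. Of 21 measured identity factors, 12 were higher and 9 lower in MASH than in Chow, where 60.8% of all genes were higher. Their median log2 ratio was 0.08 against 0.07 over all 9958 genes compared. In Phe-free 15 were above MASH and 6 below, again with a median of 0.08, where 49.5% of all genes were above. The list genes that differed most were factors shared with other dendritic cells. Klf4 was at 71.0, 46.8 and 97.2 CPM, Irf4 at 12.3, 8.83 and 23.1 CPM and Zeb2 at 194, 193 and 341 CPM, and in the first set each was below 50 CPM in every library. Relb was at 44.6, 43.7 and 72.9 CPM. Batf3 was at 164, 198 and 174 CPM. Zbtb46, a transcription factor of conventional dendritic cells, was at 81.6, 109 and 119 CPM, and Id2, which blocks the pDC fate, at 1086, 1042 and 875 CPM. Id2 in the first set was at 1770, 1264 and 1497 CPM and in the third set at 362, 241 and 164 CPM. Tlr3, the receptor for double-stranded RNA, was at 134, 167 and 158 CPM, and Itgae at 144, 153 and 127 CPM. Flt3, the growth factor receptor of dendritic cells, was at 278, 282 and 299 CPM.

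The 24 cDC1 surface and enzyme genes had a median of 0.04 in MASH over Chow and -0.26 in Phe-free over MASH. In the first set these medians were -0.24 and 0.10, so both signs were turned. Single genes differed more. Cd24a, a heat-stable surface glycoprotein of splenic cDC1, was at 183, 361 and 257 CPM, with ratios of 1.98 (1.74 to 2.26) for MASH over Chow and 0.710 (0.642 to 0.785) for Phe-free over MASH. The order was the same in the first set (242, 473 and 357 CPM). Cd8a, the CD8α chain of lymphoid-resident cDC1, was at 114, 73.7 and 73.7 CPM, with a ratio of 0.647 (0.527 to 0.794) in MASH over Chow. In the first set it was at 75.9, 60.0 and 83.2 CPM, and among members with under 10 Malat1 UMIs at 203, 131 and 156 CPM. Cd207, or langerin, a lectin of Birbeck granules that marks part of the splenic cDC1, was at 45.8, 6.52 and 14.1 CPM in 43, 10 and 23 cells. Chow was the highest library, with a MASH over Chow ratio of 0.142 (0.0790 to 0.243) and a Phe-free over MASH ratio of 2.16 (1.18 to 4.11). After each cell was thinned to 1500 UMIs, 9.33%, 0.442% and 3.77% of members held a Cd207 UMI (unthinned 21.5%, 4.00% and 10.2%). None of the gated T cells thinned in the same way did (0 of 993, 987 and 988). Before thinning, which made depths equal, medians were 8995, 9129 and 8300 UMIs in T cells and 4708.5, 4150 and 7622 in members. The first set had Cd207 at 39.0, 6.28 and 12.7 CPM, and the third set was at 0 in each library.

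Type I interferon response genes were higher in MASH than in Chow. Of 39 measured list genes 38 were higher, where 60.8% of all genes were, and 8 were at least 2-fold higher on the log2(CPM + 10) scale used for calls, where 1.05% of all genes were. The list median was 0.60 log2 units against 0.07 over all genes, and the interval lay above 1 for 31 of the 39. The median was 0.76 in the first set and 0.55 in members with under 10 Malat1 UMIs, neither of which contains the third set. In the cDC2 gate it was 0.73, and the difference between the gates was not tested.

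The type I interferon receptor acts through a complex with STAT2 and IRF9, which binds interferon-stimulated response elements with paired GAAA repeats. The promoters of Isg15, Stat2 and Tgtp1 are printed because they show this repeat in genes that went opposite ways. Windows from 250 bases before to 50 after the gene start came from RefSeq on build GRCm38.p6, which is not the build of the counts, and are written 5′ to 3′ on the gene's strand. Capitals mark each match to a pair of GAAA repeats with 2 bases of any kind between them, searched on both strands.
Isg15: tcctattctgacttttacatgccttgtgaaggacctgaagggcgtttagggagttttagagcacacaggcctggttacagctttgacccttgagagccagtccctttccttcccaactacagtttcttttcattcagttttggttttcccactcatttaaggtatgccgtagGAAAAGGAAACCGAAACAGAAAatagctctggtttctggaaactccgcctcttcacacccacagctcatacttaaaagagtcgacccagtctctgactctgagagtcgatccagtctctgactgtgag
Stat2: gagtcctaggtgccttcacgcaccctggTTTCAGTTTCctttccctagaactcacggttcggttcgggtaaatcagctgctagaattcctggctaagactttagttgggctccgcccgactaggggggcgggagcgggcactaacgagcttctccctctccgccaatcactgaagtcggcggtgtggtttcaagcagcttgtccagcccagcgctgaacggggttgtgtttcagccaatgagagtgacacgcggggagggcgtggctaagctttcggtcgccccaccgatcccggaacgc
Tgtp1: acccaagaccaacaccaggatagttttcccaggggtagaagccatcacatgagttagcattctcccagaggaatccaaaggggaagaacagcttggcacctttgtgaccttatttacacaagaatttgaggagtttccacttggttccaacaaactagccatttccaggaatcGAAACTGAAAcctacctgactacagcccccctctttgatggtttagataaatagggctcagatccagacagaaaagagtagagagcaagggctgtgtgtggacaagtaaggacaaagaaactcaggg
The Isg15 window lies at chr4:156200769-156201068 (minus strand) and holds 3 overlapping matches that begin 78, 72 and 66 bases before the start. The Stat2 window at chr10:128270248-128270547 (plus strand) holds 1 match, 222 bases before it, and the Tgtp1 window at chr11:48992197-48992496 (minus strand) 1 match, 77 bases before it. A match was found for 18 of the 31 interferon list genes in the table (58.1%), for 1 of 25 maturation genes and 0 of 25 cell cycle genes, against 3.99% of 27025 genes and 3.44% of 32851 windows of this length. A match describes letters and is not a shown binding site.

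Isg15, a ubiquitin-like protein joined to other proteins after interferon, was at 22.9, 101 and 56.0 CPM. It had UMIs in 19, 85 and 43 members, and its ratios were 4.39 (3.13 to 6.31) and 0.557 (0.451 to 0.686). MASH was highest in the first set (20.5, 94.8 and 51.9 CPM) and in members with under 10 Malat1 UMIs (26.0, 131 and 17.8 CPM), while the third set had 20.1, 70.1 and 79.1 CPM. One cell held 30.8% of the Phe-free UMIs. Gated T cells carried it too, at 38.2, 91.8 and 69.3 CPM.

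Irf7, the factor that amplifies interferon production, was at 102, 236 and 158 CPM, with ratios of 2.32 (1.956 to 2.76) and 0.672 (0.591 to 0.763), and MASH was highest in each of the 3 sets. After thinning to 1500 UMIs, 8.81%, 23.5% and 13.7% of members held an Irf7 UMI, against 5.54%, 11.9% and 7.69% of T cells. Stat2 was at 85.1, 132 and 102 CPM, with ratios of 1.55 (1.28 to 1.90) and 0.773 (0.655 to 0.910). Ifi27l2a was at 151, 472 and 379 CPM, and in the first set at 133, 317 and 135 CPM. Zbp1, a sensor of left-handed nucleic acid helices, was at 16.4, 49.9 and 39.2 CPM and Ifi209, which is not on the list, at 52.8, 129 and 88.6 CPM. Ifi209 and the Oas, Ifit and Gbp genes have near copies among which reads may be split.

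In Phe-free the interferon list was lower than in MASH for 28 of 43 genes, where 50.5% of all genes were lower, and its median was -0.20 against -0.00 over 10396 genes. No list gene was 2-fold lower, where 0.356% of all genes were. The median was -0.33 in the first set, -0.66 in members with under 10 Malat1 UMIs and -0.62 in the cDC2 gate. Xaf1, an interferon-induced antagonist of apoptosis inhibitors, was at 25.2, 56.4 and 27.8 CPM in all members and at 30.8, 68.3 and 27.4 CPM in the first set. Bst2, or tetherin, went the other way over all members (712, 782 and 1068 CPM). It was at 2359, 3625 and 2447 CPM in the third set and at 185, 200.1 and 151 CPM in the first set.

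Genes induced by interferon-γ, the type II interferon, did not follow the same order. Tgtp1, a GTPase that attacks the vacuoles of intracellular parasites, was at 74.0, 28.4 and 25.1 CPM, with a MASH over Chow ratio of 0.384 (0.284 to 0.515). In the first set it was at 26.7, 20.9 and 21.5 CPM, and it has a near copy, Tgtp2. Of 13 measured interferon-γ GTPases 4 were higher and 9 lower in MASH, where 39.2% of all genes were lower, with a median of -0.10. In Phe-free 13 of 15 were above MASH, where 49.5% of all genes were, with a median of 0.38, but the median was 0.03 in the first set and -0.01 in members with under 10 Malat1 UMIs.

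**Figure D3:**
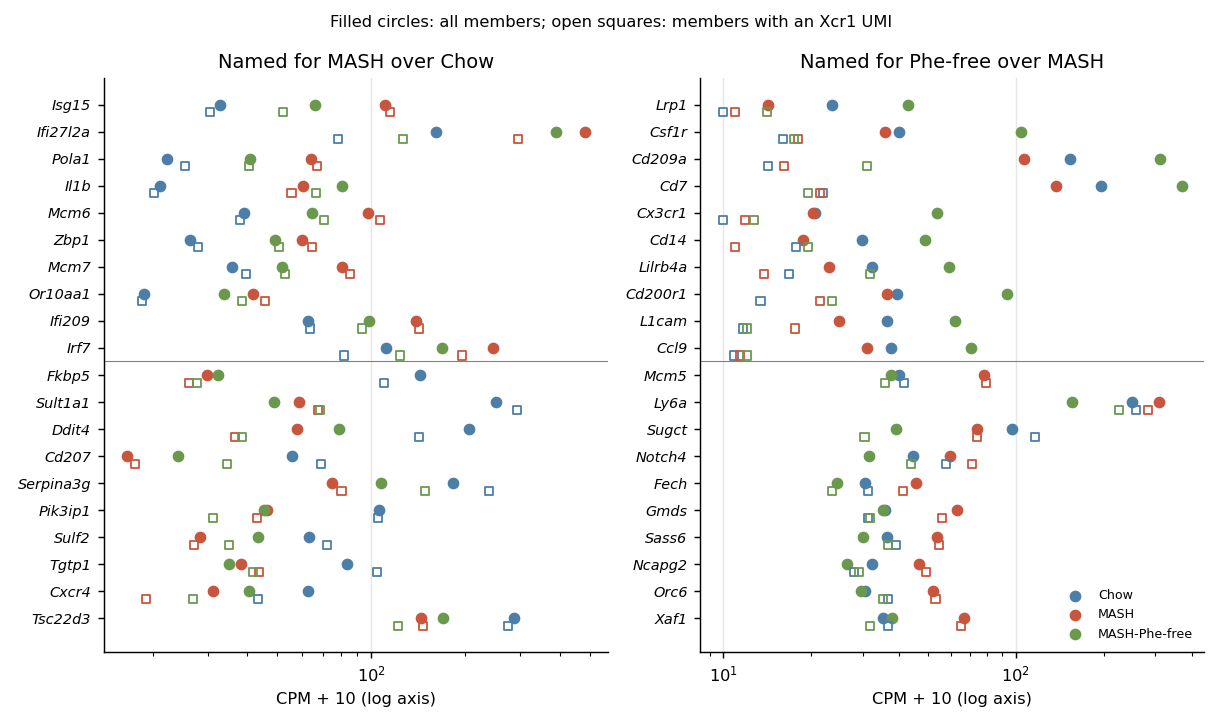
CPM + 10 (x axis, log scale) of the 20 genes named for MASH over Chow and the 20 named for Phe-free over MASH (y axis), for all members (filled circles) and members with an Xcr1 UMI (open squares), coloured by library. The line separates higher from lower genes. Sult1a1 and Fkbp5 keep Chow highest in both symbols, whereas Cd7 and Cd209a are high in the filled circles and near the left edge in the squares.

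Glucocorticoid target genes were lower in MASH than in Chow. Of 17 measured, 13 were lower, where 39.2% of all genes were, and 3 at least 2-fold lower, where 0.452% were. The list median was -0.36, and it was -0.65 in the first set and -0.42 in members with under 10 Malat1 UMIs. In the cDC2 gate it was -0.56 over 20 measured genes and in the pDC gate 0.31 over 10. Differences between the gates were not tested. Fkbp5, a chaperone that binds the glucocorticoid receptor and is induced by it, was at 133, 19.95 and 22.3 CPM in 64, 30 and 43 members. Chow stood apart, with a ratio of 0.150 (0.109 to 0.204), and Phe-free over MASH was 1.12 (0.755 to 1.66). The first set had 168, 20.9 and 20.6 CPM, the third set 237, 39.4 and 28.3 CPM and the T cells 146, 61.7 and 60.1 CPM.

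Other targets were highest in Chow too. Ddit4, an inhibitor of mTORC1 that is also an ATF4 target, was at 196, 48.0 and 69.0 CPM, with a ratio of 0.245 (0.198 to 0.302) in MASH over Chow. Tsc22d3, or GILZ, was at 277, 135 and 160 CPM, and Pik3ip1, which restrains PI3 kinase, at 95.7, 36.5 and 35.3 CPM. Cxcr4, the receptor for CXCL12 and not on the list, was at 52.8, 21.1 and 30.6 CPM. In Phe-free 13 of 17 targets were above MASH, where 49.5% of all genes were, with a median of 0.34. That median was 0.14 in the first set and -0.03 in members with under 10 Malat1 UMIs. In the cDC2 gate it was 0.02 and in the pDC gate -0.05.

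Sult1a1, a sulfotransferase for phenolic compounds, was also lower in MASH than in Chow. It was at 240.2, 48.7 and 38.8 CPM in 128, 71 and 53 members, with ratios of 0.203 (0.165 to 0.248) and 0.796 (0.606 to 1.04). Chow was highest in each of the 3 sets (240.0, 41.8 and 43.1 CPM, then 331, 89.4 and 85.0, then 85.0, 6.57 and 11.7). Thinned cells held a UMI in 34.7%, 7.96% and 9.91% of members and in 0 of 993, 1 of 987 and 0 of 988 T cells. In the cDC2 gate it was at 57.4, 7.66 and 9.75 CPM.

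Cell cycle genes were higher in MASH. All 30 list genes were measured and 30 were above Chow, where 60.8% of all genes were. At least 2-fold above it were 14, where 1.05% of all genes were, and the median was 0.95. In Phe-free 29 of 30 were below MASH (50.5% of all genes), 6 of them at least 2-fold (0.356% of all genes), with a median of -0.72. The median was 0.59 and -0.64 in the first set, and 0.12 and -0.16 in members with under 10 Malat1 UMIs. In the cDC2 gate it was 0.73 over 19 measured genes and -0.40 over 23. The pDC gate, with 17, 9 and 25 barcodes, had -2.04 over 12 genes and 3.33 over 29. Differences between the gates were not tested. Mcm6, a subunit of the replicative helicase, was at 29.4, 87.5 and 54.5 CPM in all members and 16.4, 123 and 73.4 CPM in the first set. Pola1, the catalytic subunit of DNA polymerase α and not on the list, was at 12.3, 54.1 and 31.0 CPM, with ratios of 4.39 (2.76 to 7.31) and 0.572 (0.429 to 0.759). Mki67 was at 57.0, 225 and 85.0 CPM, but in 21, 29 and 28 members. One cell held 71.1% of its Chow UMIs. Red cell RNA moved with this list, with a sum of 6 erythroid markers of 7.05, 3963 and 141 CPM. At least 2 markers of B cells, T cells, macrophages, neutrophils, NK cells or erythroid cells were held by 41, 51 and 59 members. Without them the cell cycle medians were 0.28 and -0.14. Depth was not matched in this step, and MASH Mki67 was at 313 CPM in members with 15000 or more UMIs. Under 5000 UMIs it was at 15.7 CPM. The part of other cells' RNA in the cell cycle values was not tested.

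After thinning to 1500 UMIs, at least 2 of 15 cycling genes were found in 2.07% of Chow members (0.568% to 5.22%), 6.19% of MASH members (3.43% to 10.2%) and 5.19% of Phe-free members (2.62% to 9.09%). Unthinned shares were 8.00%, 8.40% and 14.2%. When each cell was given the same weight, the Phe-free over MASH median became 0.03.

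**Figure D4:**
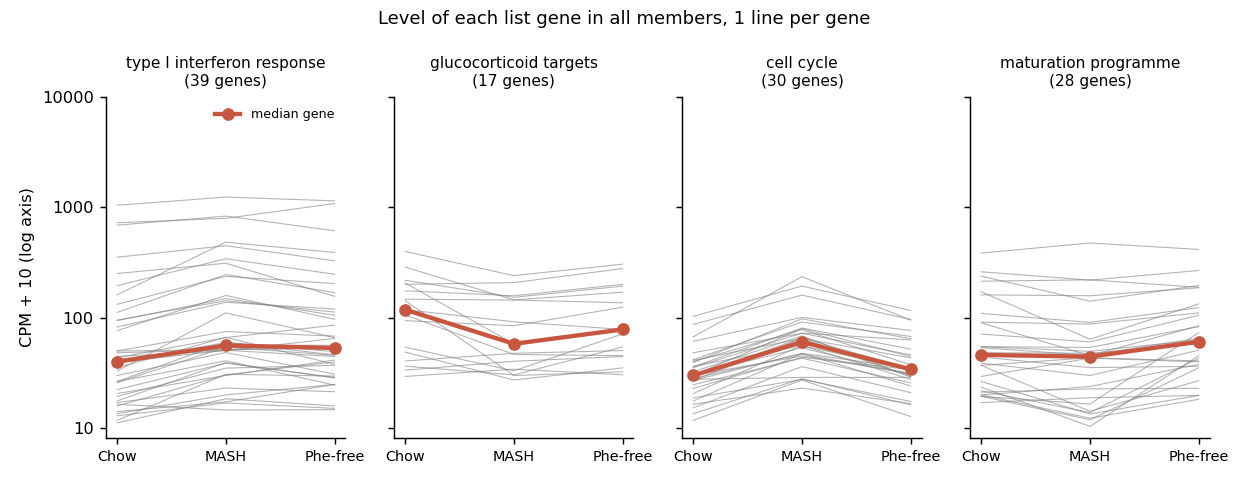
CPM + 10 (y axis, log scale) in the 3 libraries (x axis) for each measured gene of 4 lists, 1 grey line per gene, with the median gene in red. Medians of the interferon and cell cycle lists peak in MASH, and that of the glucocorticoid targets is highest in Chow.

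No MHC class II list gene was 2-fold higher or lower in either comparison. H2-Aa was at 12102, 10635 and 11007 CPM and Cd74, the invariant chain, at 33692, 30871 and 31609 CPM. Of 16 list genes 6 were higher and 10 lower in MASH than in Chow (median -0.06), where 39.2% of all genes were lower. In Phe-free 12 were above MASH (median 0.22, with 0.15 in the first set), where 49.5% of all genes were. The interval lay above 1 for 4 genes and below it for 5 in MASH over Chow, and for 11 and 1 in Phe-free over MASH. Ciita, the master activator of class II genes, was at 334, 474 and 446 CPM, with a ratio of 1.42 (1.29 to 1.57) in MASH over Chow, and at 572, 602 and 643 CPM in the first set. Ifi30, the lysosomal thiol reductase that opens antigens, was at 688, 665 and 1026 CPM. It was at 496, 554 and 710 CPM in the first set and at 1143, 1223 and 1557 CPM in the third set.

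MHC class I genes showed small differences. In MASH 18 of 21 were above Chow, where 60.8% of all genes were, with a median of 0.20, and none was 2-fold higher. Psmb9, an immunoproteasome subunit, was at 656, 847 and 637 CPM, with ratios of 1.29 (1.20 to 1.39) and 0.752 (0.705 to 0.802). B2m was at 3064, 3101 and 2952 CPM. Tap1, part of the peptide transporter, was at 190.2, 223 and 210.1 CPM. Of 20 measured genes for cross-presentation and uptake of dead cells 9 were higher and 11 lower in MASH than in Chow. Of all genes 39.2% were lower, and the list median was -0.02. In Phe-free 14 of 21 were above MASH, where 49.5% of all genes were, with a median of 0.16. At least 2-fold above were 2, where 0.962% of all genes were. That median was 0.17 in members with Xcr1 and 0.21 in the cDC2 gate. Wdfy4 was at 927, 1308 and 875 CPM over all members, a wider spread than in the first set, where its values, given above, lay between 1662 and 1826 CPM.

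Maturation genes were higher in Phe-free than in MASH over all members. Of 29 measured, 25 were higher, where 49.5% of all genes were, and 6 at least 2-fold higher, where 0.962% were, with a median of 0.51 (0.77 in the first set). Without the members that held at least 2 of 5 mature genes, which numbered 6, 4 and 8, the median was 0.19. Those members were left out for genes of this list, so a lower median follows from the choice. Ccr7, the receptor that guides mature dendritic cells to the T zone, was at 9.39, 6.52 and 63.1 CPM in 6, 6 and 11 cells, and 1 cell held 72.0% of the Phe-free UMIs. Il12b, a subunit of IL-12, was at 1.17, 2.30 and 76.0 CPM in 1, 3 and 3 cells, with 67.5% from 1 cell. Fscn1, an actin bundler of mature dendritic cells, was at 27.0, 4.22 and 16.9 CPM in 7, 6 and 8 cells. In MASH 21 of 28 maturation genes were below Chow (median -0.23, and 0.02 without those members), where 39.2% of all genes were. In thinned cells the share with at least 2 mature genes was 1.55%, 0.442% and 0.943%, with overlapping intervals.

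Among cytokines and chemokines, Cxcl9, which draws CXCR3-bearing T cells, was at 279, 222 and 285 CPM in 85, 110 and 88 members. Cxcl16 was at 38.8, 56.4 and 77.6 CPM. Il1b was at 11.2, 50.7 and 70.9 CPM in 14, 34 and 35 members, with a MASH over Chow ratio of 4.54 (2.79 to 7.78). In the first set it was at 2.05, 40.4 and 53.8 CPM. The neutrophil markers of the first set summed to 24.6, 174 and 10288 CPM, and their part in the Il1b values was not tested. Over all members the neutrophil marker S100a8 was at 1217, 214 and 1556 CPM, of which 97.97%, 88.2% and 76.7% came from 1 cell. The costimulatory ligands Cd80 and Cd86 were at 27.0, 33.4 and 30.6 CPM and at 204, 209.9 and 178 CPM. Cd274, or PD-L1, was at 9.98, 13.8 and 27.8 CPM.

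Genes of amino acid supply were examined because of the phenylalanine-free treatment. Of 13 measured genes for phenylalanine handling, 8 were above Chow in MASH (median 0.15), a share near the 60.8% of all genes. Of 14 in Phe-free 9 were above MASH (median 0.14), where 49.5% of all genes were. In the first set the medians were 0.38 and -0.10. Slc7a5, the light chain of the LAT1 carrier for phenylalanine and other large neutral amino acids, was at 34.1, 56.4 and 29.4 CPM. Its ratios were 1.66 (1.21 to 2.29) and 0.521 (0.389 to 0.693), and MASH was highest in each of the 3 sets. Slc16a10, a carrier of aromatic amino acids, was at 5.87, 16.1 and 6.27 CPM, with 61.9% of the MASH UMIs from 1 cell. Il4i1, a secreted oxidase of phenylalanine and other amino acids, was at 11.7, 3.84 and 32.9 CPM in 5, 7 and 14 cells. Of 18 measured targets of ATF4, the factor induced by amino acid shortage, 13 were above Chow in MASH (median 0.31), where 60.8% of all genes were. In Phe-free 12 of 18 were below MASH (median -0.16), where 50.5% of all genes were. Psph, the last enzyme of serine synthesis, was at 5.87, 23.4 and 16.5 CPM in 8, 40 and 35 cells. Of 23 measured mTORC1 genes 16 were higher in MASH and 12 in Phe-free, where 60.8% and 49.5% of all genes were, with medians of 0.08 and 0.03.

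**Figure D5:**
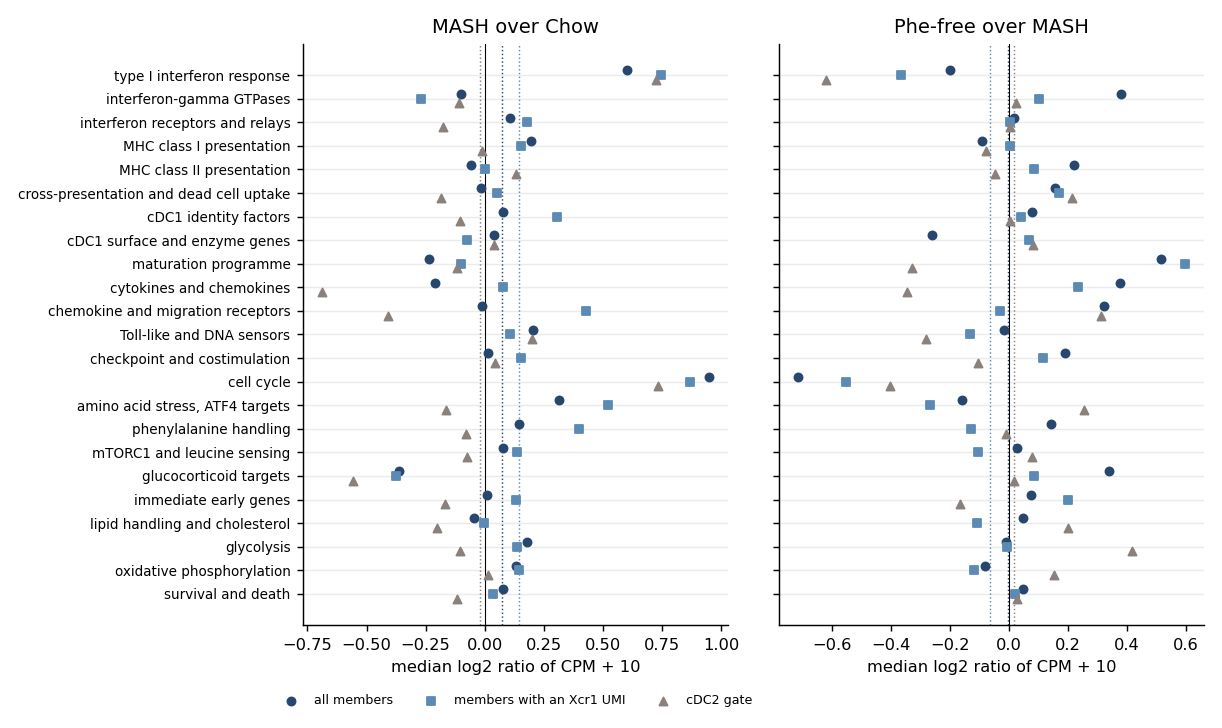
Median log2 ratio of CPM + 10 (x axis) of each gene list (y axis) for all members, members with an Xcr1 UMI and the cDC2 gate, in MASH over Chow (left) and Phe-free over MASH (right); dotted lines are the medians over all genes. In all members the cell cycle list lies farthest to the right on the left side, at 0.95, and farthest to the left on the right side, at -0.72.

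Each of the 10 genes named as higher in Phe-free than in MASH was higher in the third set than in the first set, in all 3 libraries. Csf1r, the receptor of the macrophage growth factor, was at 29.9, 25.7 and 94.1 CPM over all members, with a ratio of 3.66 (2.78 to 4.87). It was at 98.4, 110 and 224 CPM in the third set and at 4.10, 9.76 and 10.8 CPM in the first set. Cd209a, a C-type lectin, was at 143, 97.1 and 302 CPM over all members and 10.3, 8.37 and 29.4 CPM in the first set. Cd7 was at 186, 128 and 360 CPM over all members and 20.5, 13.9 and 13.7 CPM in the first set. Lrp1, a receptor for dead cells and protease complexes, was at 13.5, 4.22 and 32.9 CPM, and Cx3cr1, the fractalkine receptor, at 10.6, 10.4 and 43.9 CPM. Both were under 5 CPM in each library in the first set. The share of the third set among barcodes with at least 10 Malat1 UMIs, given above, was also higher in Phe-free than in MASH. Of all member UMIs (1703087, 2606065 and 2551591), the third set held 447240, 456305 and 1024212. The part of this set in the values of these genes was not tested.

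Of the 10 genes named as lower in Phe-free than in MASH, 9 were lower in the first set as well, and Ly6a was higher there. Notch4, a Notch receptor, was at 34.6, 49.5 and 21.6 CPM over all members and at 86.1, 72.5 and 40.1 CPM in the first set. Sugct, a mitochondrial enzyme, was at 86.9, 63.7 and 29.0 CPM and at 105, 70.4 and 21.5 CPM. Fech, the last enzyme of haem synthesis, was at 20.6, 35.7 and 14.5 CPM and at 20.5, 35.6 and 12.7 CPM. Haemoglobin RNA moved with Fech over all members, with Hbb-bs at 5.87, 3202 and 101 CPM, and its part in the Fech values was not tested. Ly6a, the interferon-responsive antigen Sca-1, was at 241, 301 and 146 CPM over all members with a ratio of 0.485 (0.427 to 0.549). It was at 180, 149 and 220 CPM in the first set, at 297, 524 and 211 CPM in members with under 10 Malat1 UMIs and at 210, 427 and 39.1 CPM in the third set.

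RNA of other cells was present in unequal amounts. Of the erythroid markers, Hba-a1 and Hbb-bs made up most of the sums given above, and Car1, Klf1 and Slc4a1 were at 0 in Chow. The 6 neutrophil markers summed to 3064, 587 and 4567 CPM, the 6 B cell markers to 23.5, 36.8 and 33.3 CPM, the 6 T cell markers to 20.6, 8.44 and 10.2 CPM and the 6 macrophage markers to 49.3, 33.0 and 45.1 CPM. Without barcodes that held at least 2 markers of such cells, the interferon median of MASH over Chow was 0.62. That of the cell cycle list was 0.28, and the part of other cells' RNA in either was not tested. All barcodes numbered 16495, 19219 and 16778 per library, with 138787602, 152501471 and 160115282 UMIs.

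Against the cDC2 gate, the members were higher in Gpr141b (309, 243 and 205 CPM against 0, 1.77 and 0), Rab7b (241, 307 and 236 CPM against 8.57, 0.589 and 4.87) and Gcsam (132, 168 and 107 CPM against 0, 0 and 2.79) in all 3 libraries. Rab7b encodes a GTPase of endosomal transport and Gcsam a signalling adaptor. In the third set Gpr141b was at 0, 0 and 9.76 CPM and Gcsam at 8.94, 4.38 and 6.83 CPM. The pDC marker Siglech was higher than in the cDC2 gate too, at 444, 279 and 453 CPM against 12.0, 1.18 and 3.48. Cox6a2, another pDC marker, was at 107, 85.2 and 120 CPM against 0.857, 0.589 and 0. In members with Xcr1, Siglech was at 0.855, 0.951 and 5.45 CPM and Cox6a2 at 0, 0.951 and 0 CPM. These genes were picked for this difference, so their values are a description.

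The lists not yet described gave these values. Of 26 oxidative phosphorylation genes, 24 were above Chow in MASH and 23 below MASH in Phe-free, none by 2-fold, with medians of 0.13 and -0.08, where 60.8% of all genes were above Chow and 50.5% below MASH. Of 18 glycolysis genes 12 were above Chow, with a median of 0.18. Survival and death genes had medians of 0.08 and 0.05. Within that list Bcl2a1b, an antiapoptotic gene with near copies, was at 206, 111 and 154 CPM, with ratios of 0.540 (0.461 to 0.633) and 1.38 (1.18 to 1.61). Toll-like receptors and DNA sensors had medians of 0.20 and -0.02, and Cgas, the DNA sensor that makes cyclic GMP-AMP, was at 12.9, 35.7 and 18.4 CPM. Lipid genes had medians of -0.05 and 0.05. Cytokines and chemokines had medians of -0.21 and 0.37, chemokine and migration receptors -0.01 and 0.32, and checkpoint and costimulation genes 0.01 and 0.19. Interferon receptors and relays had medians of 0.10 and 0.02. Immediate early genes had medians of 0.01 and 0.07, but single genes differed more. In MASH 4 of 24 were at least 2-fold above Chow, where 1.05% of all genes were, and the interval lay above 1 for 9 and below it for 6. In Phe-free 1 of 26 was at least 2-fold below MASH, where 0.356% of all genes were.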

How the data were processed

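Chromium 5′ v2 single-cell libraries of 3 spleen samples were used, 1 per group. The deposited values are raw UMI counts per gene and barcode, written by Cell Ranger 9.0.1 per the file headers. The submitters' processing notes name Cell Ranger 9.0.1, Seurat 5.3.0 and the builds GRCm39 and mm39 without their roles.

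From these counts, members' UMIs were summed per library and scaled to CPM over 33696 genes. Genes with at least 20 UMIs in the 2 libraries compared were used, and a call was a 2-fold difference on log2(CPM + 10). Ratio intervals are exact conditional Poisson intervals, and share intervals are exact Clopper-Pearson intervals, both at 95%. UMIs of 1 cell are not independent samples, so they cover counting error only. With 1 library per group there was no replicate and no test. The 2 comparisons share MASH.

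Genes named per comparison were the 10 highest and 10 lowest by log2 ratio with at least 50 UMIs, 30 CPM in the higher library, UMIs in at least 10% of its members, at most 20% from 1 cell and at least 0.25 of that library's level over all barcodes. From each list the 4 genes with the largest ratios were also taken. Other genes in the text were chosen after their values were seen, and a few list genes are not reported here. The members and lists were chosen with earlier results of these data known. Shares of cells were thinned to 1500 UMIs, leaving out 7, 24 and 14 shallower members, and T cells were a sample of 1000 per library. Scrublet (scanpy 1.11.5) marked 315, 318 and 304 barcodes, of which 1, 1 and 2 were members. They were kept. The libraries shared 72, 77 and 102 barcode sequences in pairs, none among members. Count ratios were tested on simulated data. Python 3.11.15, numpy 2.4.6, scipy 1.17.1 and pandas 2.3.3 were used.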

Additional observations from a re-analysis of the deposited data

How the results depend on the processing

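No paired analysis was possible because each group had 1 library, and for the same reason no replicate could be left out. Splits by Xcr1, Malat1, pDC or mature genes were chosen after seeing the data, as was weighting cells alike. Of 132 alternative values for shares, counts and states 88 stayed within counting error or 1.5 times and 44 did not. Of 736 list medians 105 had the opposite sign. In 7 of these the median counting interval left 0 and the new value lay outside it. Of 2768 single-gene values 142 had the opposite sign, 6 of them for genes with a 2-fold difference.

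The log2 ratio of the share of members in MASH over Chow was 0.90 among barcodes with at least 10 Malat1 UMIs and -0.47 among those under 10. In Phe-free over MASH it was 0.61 with at least 10, -0.43 with all 3 markers and -0.39 with Xcr1. The share among gated dendritic cells was then -0.35 and -0.31. Counts of 2-fold genes depended most on the offset. With an offset of 1 CPM, 424 were higher and 181 lower in MASH over Chow and 331 and 217 in Phe-free over MASH, and with 50 CPM 10, 13, 13 and 6. With at least 100 UMIs, 54 and 23 remained in MASH over Chow and 16 were lower in Phe-free. In MASH over Chow, 50 were higher without barcodes carrying other cells' markers, 217 were higher in members with Xcr1 and at least 10 Malat1 UMIs, and 95 were lower with at least 10 Malat1 UMIs. In Phe-free over MASH, 30 were higher and 133 lower with under 10 Malat1 UMIs. The lower genes were 71 with all 3 markers, 57 with Xcr1, 70 with at least 10 Malat1 UMIs, 104 with both, 56 above 5000 UMIs and 17 without other cells' markers.

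With 1 gene in place of 2, cycling cells were 7.25%, 10.2% and 11.3%, and mature cells 4.66% in Chow. Of MASH members with Xcr1, 0% were mature. Thinned to 3000 UMIs, Cd8a was found in 29.1%, 20.5% and 16.96%, Itgae in 33.3% of Chow and 34.2% of MASH, and Cd207 in 3.11% of MASH. With Xcr1, Cd8a was found in 23.5% of Chow and 24.8% of Phe-free, and Itgae in 29.6% of MASH and 27.8% of Phe-free.

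These 7 and 6 values follow, as log2 ratios of Phe-free over MASH unless named. With under 10 Malat1 UMIs the interferon-γ GTPase median was -0.0138, the glucocorticoid median -0.0273 and Mki67 0.19. With Xcr1 the MHC class I median was 0.0013, the chemokine receptor median -0.0301, Cd7 -0.13 and Csf1r -0.0478. With Xcr1 and at least 10 Malat1 UMIs the chemokine receptor median was -0.27 and Cd7 -0.0145. With all 3 markers the chemokine receptor median was -0.0055. Weighting cells alike gave a cell cycle median of 0.0338, and leaving out other cells' markers gave Uhrf1 0.17. In MASH over Chow, Uhrf1 was -0.45 with under 10 Malat1 UMIs. The cause was not tested. Scaling by the median of ratios shifted all genes by 0.09 and -0.01. Depth limits genes under 20 UMIs, which were not compared, and the first set rests on 17 Chow members.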
